A study of Mus musculus with 18 samples.

Results

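The nuclear-encoded genes of oxidative phosphorylation were taken by name from all gene symbols of the count tables. For complex I the whole symbol had to be Nduf followed by a, b, c, s or v and a number, and for complex II Sdha to Sdhd. For complex III the symbol had to begin with Uqcr, for complex IV with Cox4 to Cox8 and for complex V, the ATP synthase, with Atp5. This rule gave 84 of 21881 symbols, 36 for complex I, 4 for complex II, 8 for complex III, 19 for complex IV and 17 for complex V. Of these, 80 encode subunits. The other 4 match the rule by name and were not counted as subunits. Cox7a2l is a factor of supercomplex assembly, and Cox4nb is a subunit of the membrane protein complex of the endoplasmic reticulum (now Emc8). Atp5s and Atp5sl (now Dmac2) are related proteins outside the enzyme. Ndufa4, counted by name with complex I, is now known as a protein associated with complex IV.

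The cells were sorted from the mouse aorta-gonad-mesonephros (AGM) at embryonic day 11, the tissue in which definitive hematopoietic stem cells emerge. All embryos carried BRE-GFP on the C57BL6 background, a reporter in which a BMP response element drives GFP. The populations were a hematopoietic progenitor and stem cell fraction (HPSC, CD31 positive and Kit positive), a mesenchymal fraction (MC, negative for both) and an endothelial fraction (EC, CD31 positive and Kit negative). They came from explants cultured with BMP and Hedgehog in the presence of cyclopamine, which blocks the Hedgehog response at Smoothened, from such explants without cyclopamine, and from fresh tissue. Each population was divided into BRE-GFP positive and BRE-GFP negative cells, which gave 18 libraries with 1 library per combination of 3 populations, 3 cultures and 2 fractions. Every comparison therefore set matched libraries against each other in 6 or 9 blocks, and the labels do not give the embryos or sorts behind matched libraries, so the p-values speak of the variation among these 18 libraries, which can include technical variation.

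Oxidative phosphorylation couples the oxidation of NADH and succinate to ATP synthesis in the inner mitochondrial membrane. Complex I takes electrons from NADH and complex II from succinate, complex III passes them from ubiquinol to cytochrome c, complex IV hands them to oxygen, and complex V uses the proton gradient that complexes I, III and IV build. Adult hematopoietic stem cells are known for a low use of this pathway relative to glycolysis. Most subunits are encoded in the nucleus; those encoded by mitochondrial DNA were not analysed here.

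Gene counts ran from 3041249 in HPSC cyclopamine negative to 21972063 in MC cyclopamine positive (median 12564706), and the next shallowest library was MC fresh positive with 4547062. Between 10297 and 18816 symbols had at least 1 count, and 19.5 to 49.4% of the reads placed once fell outside annotated features. The gates were checked on their genes, with values in CPM (counts scaled to the TMM-adjusted library total): Pecam1, the CD31 gene, stood at 212 to 2682 CPM in HPSC, at 2.996 to 11.5 CPM in MC and at 93.7 to 1683 CPM in EC, and Kit at 449.9 to 1135 CPM in HPSC, at 20.9 to 187 CPM in MC and at 42.6 to 219.9 CPM in EC. A list of 9 macrophage markers summed to 674 to 5415 CPM in HPSC, 54.7 to 185 CPM in MC and 1050 to 7534 CPM in EC, and 8 hematopoietic progenitor markers to 1431 to 2207 CPM in HPSC, 118 to 250.4 CPM in MC and 287 to 1561 CPM in EC. The 8 endothelial markers, none at 0 in any library, summed to 316 to 7132 CPM in HPSC, 62.2 to 195 CPM in MC and 441 to 7296 CPM in EC. The 8 mesenchymal markers summed to 283 to 917 CPM in HPSC, 2524 to 7601 CPM in MC and 986 to 6708 CPM in EC, and no more than 1 of them was at 0 in any library. In 4 of the 6 EC libraries the mesenchymal sum exceeded the endothelial one, as in EC cyclopamine positive with 6708 against 1490 CPM. The 11 erythroid markers summed to 1916 to 15331 CPM in HPSC, 497 to 28276 CPM in MC and 44.04 to 3488 CPM in EC, with up to 6 of them at 0. The part of these lists in the comparisons was not tested. In sorted bulk samples, fewer cells of a type and less RNA per cell cannot be told apart.

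Of the 84 symbols, 81 passed the filter on low counts (at least 0.796 CPM in at least 3 libraries). The 3 that did not were Ndufs5, an accessory subunit of complex I with 4 counts in 3 libraries, Cox8b, an isoform of heart and skeletal muscle with 37 counts in 8 libraries, and Cox8c, a testis isoform with 71 counts in 9 libraries. A count of 0 allowed a level of up to 0.136 CPM in the deepest and 1.13 CPM in the shallowest library (3 counts, counting error only). The low value of Ndufs5 (chr4:123712710-123718202, minus strand, GRCm38) may fall short of its transcript level, as reads with more than 1 place were not counted. Of the 50-base windows of its transcript, 41.2% occur in annotated transcripts of other genes. Uqcrb, with 43.4% of such windows, had a mean of 96.6 CPM, against 0.01 CPM for Ndufs5. The part of shared sequence in the low value of Ndufs5 was not tested.

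Levels between genes were compared as mean CPM per kilobase of exon. Cox4i1, the widely expressed form of the regulatory subunit 4 of cytochrome c oxidase (chr8:120668222-120674207, plus strand), stood highest at 1160 CPM per kilobase. It was followed by Atp5e (epsilon) and Atp5a1 (alpha) of the ATP synthase head at 853 and 705 CPM per kilobase, Uqcr10, a small subunit of complex III, at 521, the complex I accessory subunit Ndufa3 at 491 and Cox6b1 at 489 CPM per kilobase. This order depends on the length used: with the exons of all annotated transcripts, Cox4i1 stood at 572, Atp5a1 at 556, Cox6b1 at 427, Uqcr10 at 387, Ndufa3 at 247 and Atp5e at 205 CPM per kilobase. By role, the median level was 135 CPM per kilobase for the 3 subunits of the NADH-oxidizing core of complex I, 183 for the 4 of its quinone-reducing core and 182 for its 29 accessory subunits. The catalytic pair of complex II, Sdha and Sdhb, had a median of 332 CPM per kilobase and its membrane anchors Sdhc and Sdhd a median of 212. In complex III, the core proteins Uqcrc1 and Uqcrc2 had a median of 244 CPM per kilobase, the small subunits 189, and the Rieske iron-sulfur protein Uqcrfs1 stood at 30.5. In complex V, the 5 subunits of the catalytic head had a median of 389 CPM per kilobase and the 4 of the peripheral stalk 158. In unscaled mean CPM, the members of highest level in each complex were Ndufa9 (354), Sdha (794), Uqcrc2 (437), Cox4i1 (887) and Atp5a1 (1743), and those of lowest level Ndufs5 (0.01), Sdhc (262), Uqcrfs1 (41.6), Cox8b (0.12) and Atp5g2 (0.88).

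**Figure D1:**
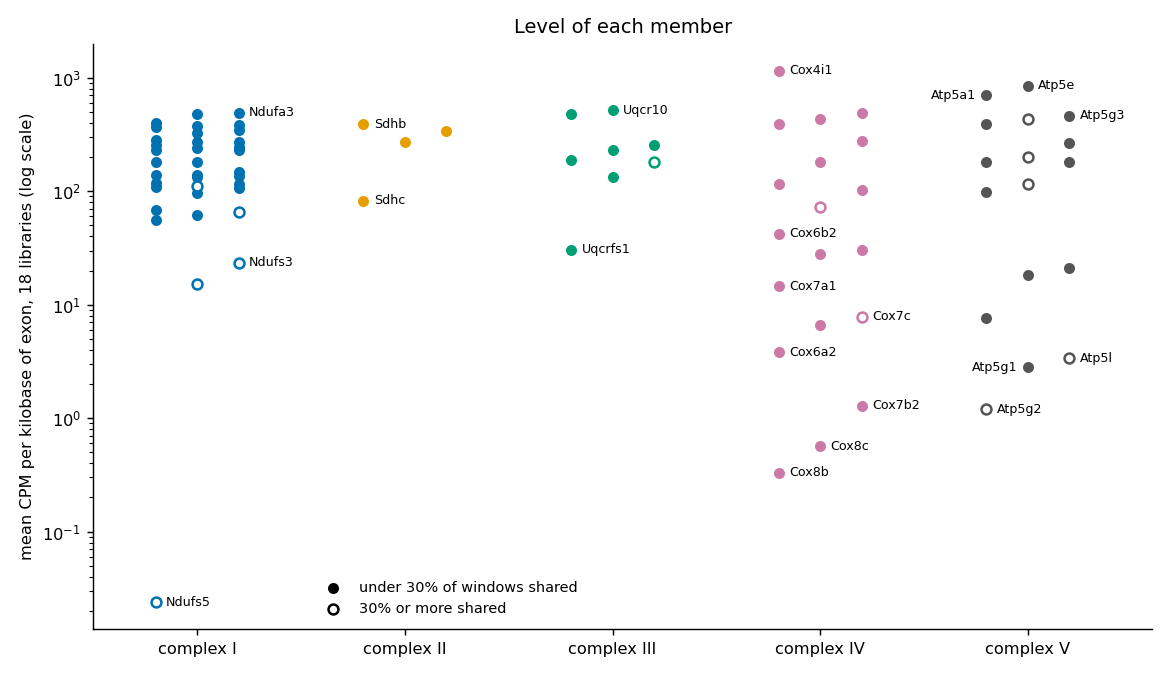
Mean level of each of the 84 members over 18 libraries, in CPM per kilobase of exon on a log axis, by complex; open symbols mark members with at least 30% of their 50-base windows shared with transcripts of other genes. Cox4i1 stands highest at 1160, and most members below 10 CPM per kilobase are second isoforms, open symbols or symbols that are no subunit.

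Low levels went with shared sequence for some members. The 5 members with over 50% shared windows (Atp5g2, Atp5l, Cox7c, Atp5h and Atp5o) had a median of 7.81 CPM per kilobase, the 8 members with 30 to 50% a median of 68.9, the 16 with 10 to 30% a median of 185 and the 55 with under 10% a median of 182. Atp5o, the stalk subunit OSCP, stood at 435 CPM per kilobase in spite of 50.3% shared windows. Counts of members with many shared windows can fall short of their transcript levels.

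Several subunits of complex IV and the c ring of complex V exist as isoforms. In each of these sets 1 gene held most of the per-kilobase signal, in complex IV the widely expressed form. Atp5g3 held 99.1 ± 0.35% of the 3 c-ring genes (mean ± SD, n = 18). Atp5g1 held 0.611% (1.77% with the exons of all annotated transcripts as length, 3.89% with no length). Atp5g2 held 0.274%, but 87.4% of its windows are shared, so its counts can fall short of its transcript level. Cox4i2, the form of subunit 4 known from lung and smooth muscle and for its induction at low oxygen, held 2.53 ± 1.44% of the Cox4i pair, and 4.604% with the exons of all annotated transcripts as length. Its share was 1.82 ± 0.83% in HPSC, 3.66 ± 1.38% in MC and 2.11 ± 1.45% in EC (SD, n = 6 each), and single libraries ran from 0.0943% in EC fresh positive to 5.03% in MC explant positive. Cox6a2 and Cox7a1, the isoforms of heart and skeletal muscle, held 1.09 ± 1.23% and 4.56 ± 5.97% of their pairs, and the testis isoforms Cox6b2 and Cox7b2 8.18 ± 6.50% and 1.05 ± 1.28%. Cox8b and Cox8c held 0.228% and 0.351% of the Cox8 set. A list of 8 skeletal and heart muscle markers summed to 1.18 to 15.2 CPM in HPSC, 237 to 1173 CPM in MC and 32.4 to 244 CPM in EC. The Cox7a1 share averaged 5.67% in HPSC, 1.49% in MC and 6.54% in EC, and the Cox6a2 share 1.12%, 1.59% and 0.560%. The part of muscle cells in these shares was not tested. Within EC, 1 library carried the high mean: Cox7a1 had a share of 24.2% in EC cyclopamine negative, and Cox6b2 had its highest share, 30.3%, in the same library.

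Promoter sequence was at hand for 69 of the 84 members (RefSeq, GRCm38.p6), and 8 of them, 11.6%, held the letters GCATGCGC, part of the binding motif of NRF1, a factor known to act on respiratory chain genes, within 250 bases before the start on either strand. Of 27025 genes with promoter sequence, 2.56% held these letters. The ETS and GABP letters CCGGAAG stood in 17.4% of the members' windows and in 7.83% of all, the YY1 letters AAGATGGC in 2.90% and 1.83%, and CCAAT in 44.9% and 37.5%. With 1 start per gene the YY1 letters stood in 0% of the members and 1.59% of all genes. The members' windows had a median GC content of 56.0%, against 52.4% in all windows, and a match is a description of sequence, not of binding. The 30-base windows of 4 holders from complexes I, IV and V are shown 5′ to 3′ on the gene's strand because they carry these letters in different surroundings. Capitals mark the letters, which in Cox6a1, Ndufa11 and Atp5k form 2 overlapping copies on opposite strands. The windows lie at chr15:82354356-82354385 (minus) for Ndufa6, chr17:56717692-56717721 (plus) for Ndufa11, chr5:115349101-115349130 (minus) for Cox6a1 and chr5:108434430-108434459 (minus) for Atp5k.
Ndufa6: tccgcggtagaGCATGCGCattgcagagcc
Ndufa11: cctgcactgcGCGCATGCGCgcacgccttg
Cox6a1: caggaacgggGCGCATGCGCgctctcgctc
Atp5k: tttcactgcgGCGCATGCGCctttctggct

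Summed over all members, oxidative phosphorylation transcripts made up 1.17 to 2.74% of gene counts (median 1.62%). The sum was 18429 ± 6599 CPM in HPSC, 16972 ± 3381 CPM in MC and 15558 ± 2499 CPM in EC (SD, n = 6 each). By culture it was 17841 ± 6807 CPM with cyclopamine, 15888 ± 2988 CPM in explants without it and 17230 ± 2918 CPM in fresh tissue, and by fraction 16406 ± 2865 CPM in BRE-GFP positive and 17567 ± 5691 CPM in negative libraries. The ranges of the groups overlapped in each of these divisions, with 14704 to 31448 CPM in HPSC, 13557 to 21559 CPM in MC and 11410 to 17787 CPM in EC. The single libraries ran from 11410 CPM in EC explant negative to 31448 CPM in HPSC cyclopamine negative, the library of least depth. Complex I held 31.9 to 39.1% of the sum, complex II 6.43 to 14.4%, complex III 9.58 to 11.4%, complex IV 11.6 to 16.8% and complex V 24.7 to 33.4%.

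**Figure D2:**
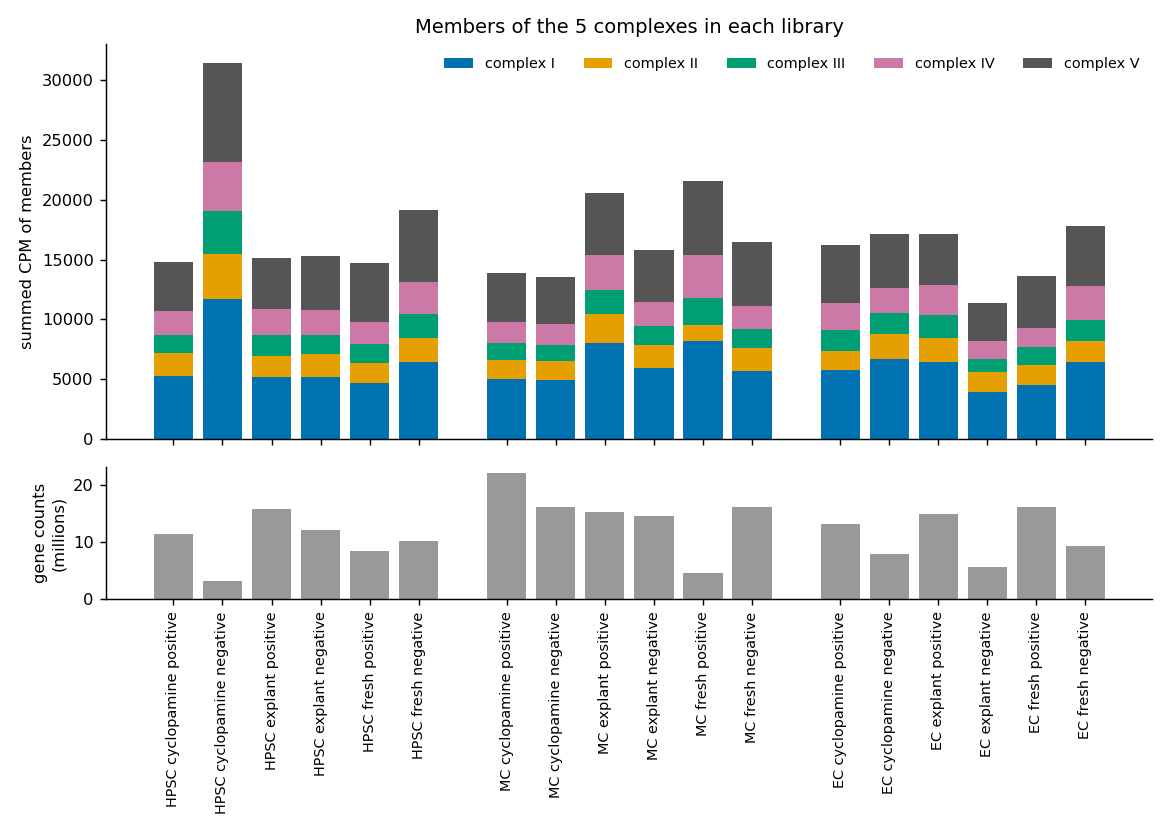
Summed CPM of the members of complexes I to V in each of the 18 libraries (stacked bars, top) and the gene counts of each library (bottom). HPSC cyclopamine negative, the library of least depth at 3041249 gene counts, has the highest sum at 31448 CPM, and EC explant negative the lowest at 11410 CPM.

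Members varied less between libraries than most tested genes. Their SD of log2 CPM over the 18 libraries had a median of 0.52, against 1.61 over all 16231 tested genes. Part of this gap goes with level: between the quartiles of the members' mean CPM (66.6 to 260 CPM), the median SD was 0.53 for 41 members and 0.67 for 3079 genes. Cytosolic ribosomal proteins had a median SD of 0.54 and enzymes of the tricarboxylic acid cycle one of 0.50. An SD under 0.5 was found in 35 members. An SD over 1 was found in 8: Cox6a2 (2.12), Cox4nb (1.86), Cox7a1 (1.77), Atp5s (1.75), Cox7b2 (1.64), Cox4i2 (1.43), Cox5a (1.23) and Uqcrfs1 (1.01). The highest values gathered in few libraries: 53 of 81 members had their highest CPM in HPSC cyclopamine negative and 13 in MC fresh positive, the pair of least depth, while 38 had their lowest in EC explant negative. In HPSC cyclopamine negative the median member lay 1.05 above its own mean over libraries on the log2 scale. The median tested gene lay 1.35 below its own mean. The part of depth in this was not tested.

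HPSC were set against EC within 6 blocks that share culture and BRE-GFP fraction. edgeR called 0 of 81 members at an adjusted p under 0.05, against 0.32% of all tested genes, and 0 had an unadjusted p under 0.05, against 9.32%. DESeq2 and limma-voom also called 0, with 1 and 0 at an unadjusted p under 0.05. The log2 fold change was positive for 71 of 81 members with a median of 0.18, while the median of all tested genes was -0.17. By complex the medians were 0.12 for I, 0.24 for II, 0.29 for III, 0.17 for IV and 0.21 for V, and all 8 complex III members were positive. Without HPSC cyclopamine negative the median was -0.05, and without both shallow libraries it was -0.02, with 37 of 81 positive. It was 0.04 by limma-voom and -0.02 with the share of reads at no feature as a covariate.

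The members of lowest p in this comparison did not pass the threshold. Atp5a1, the alpha subunit of the ATP synthase head, had 1414, 1835 and 3012 CPM (lowest, median and highest) in HPSC and 1025, 1523 and 1755 CPM in EC. The highest 3 HPSC libraries lay above all EC libraries and the other 3 overlapped with them (log2 fold change 0.40 ± 0.20 (SE), 95% interval -0.03 to 0.83, edgeR adjusted p = 0.578, higher in 5 of 6 blocks). Sdha, the flavoprotein of succinate dehydrogenase (chr13:74322254-74350280, minus strand), had 783, 890 and 1238 CPM in HPSC and 597, 742 and 879 CPM in EC. It was higher in HPSC in 6 of 6 blocks with overlapping ranges (0.34 ± 0.22, edgeR adjusted p = 0.707). Atp5sl averaged 71.1 ± 48.8 CPM in HPSC and 35.0 ± 17.4 CPM in EC (0.99 ± 0.51, edgeR adjusted p = 0.592).

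MC were set against EC in the same blocks. edgeR called 0 members, against 2.54% of all tested genes, and 0 had an unadjusted p under 0.05, against 11.4%. DESeq2 and limma-voom called 0, with 1 each at an unadjusted p under 0.05. The median of the members was 0.17, with 64 of 81 positive, close to the 0.20 of all tested genes. It was 0.20 for complex I, where 32 of 35 were positive, and 0.01 for complex III, where 4 of 8 were. Without MC fresh positive the median of all members was -0.07, without both shallow libraries it was also -0.07, and by limma-voom it was 0.01. Atp5o had 306, 402 and 654 CPM in MC and 187, 335 and 404 CPM in EC (0.52 ± 0.27, edgeR adjusted p = 0.496, higher in 5 of 6 blocks). The 3 highest MC libraries, with MC fresh positive at the top, lay above all EC libraries and the others overlapped with them. Cox4i2 (chr2:152754173-152765037, plus strand) was higher in MC in 6 of 6 blocks, at 13.1, 30.8 and 60.5 CPM against 0.566, 19.0 and 31.2 CPM in EC. Its ranges overlapped, and the interval of its log2 fold change of 1.16 ran from -0.34 to 2.65 (edgeR adjusted p = 0.609). Ndufb10, an accessory subunit of the membrane arm of complex I, averaged 244 ± 66.9 CPM in MC and 189 ± 51.6 CPM in EC (0.39 ± 0.25, edgeR adjusted p = 0.641).

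HPSC versus MC had the most genes called of the 6 comparisons, and few of the members came near the threshold. edgeR called 0 of 81, against 9.95% of all tested genes, and 1 had an unadjusted p under 0.05, against 25.1%. DESeq2 called 0 with 2 unadjusted, and limma-voom called 2, Atp5b (log2 fold change 0.50, adjusted p = 0.0483) and Cox5a (1.65, adjusted p = 0.0324), against 17.7% of all genes by that tool. Without both shallow libraries edgeR called 1 member, Atp5b (0.70, edgeR adjusted p = 0.0318), against 8.47% of the genes tested then. The median was 0.02 with 41 positive and 40 negative, and that of all tested genes -0.38. It was -0.17 without HPSC cyclopamine negative, 0.24 without MC fresh positive, 0.01 without both and -0.21 with the share of reads at no feature as a covariate. By complex it was -0.04 for I and 0.35 for III. Uqcrc1, a core protein of complex III (chr9:108936633-108949623, plus strand), had 306, 511 and 658 CPM in HPSC and 275, 341 and 433 CPM in MC. HPSC was higher in 5 of 6 blocks and the ranges overlapped (0.51 ± 0.24, 95% interval 0.00 to 1.02, unadjusted p = 0.0496 and adjusted p = 0.198 by edgeR). Cox5a, which with Cox4 surrounds the catalytic core of cytochrome c oxidase (chr9:57521274-57532426, plus strand, 32.0% shared windows), had 15.0, 58.9 and 130 CPM in HPSC and 7.07, 25.4 and 65.7 CPM in MC. It was higher in HPSC in 5 of 6 blocks with wide overlap (1.21 ± 0.58, edgeR adjusted p = 0.206, 0.0324 to 0.535 over the other settings tried). Sdhd, an anchor of complex II, averaged 506 ± 243 CPM in HPSC and 352 ± 94.8 CPM in MC (0.44 ± 0.24, edgeR adjusted p = 0.273).

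**Figure D3:**
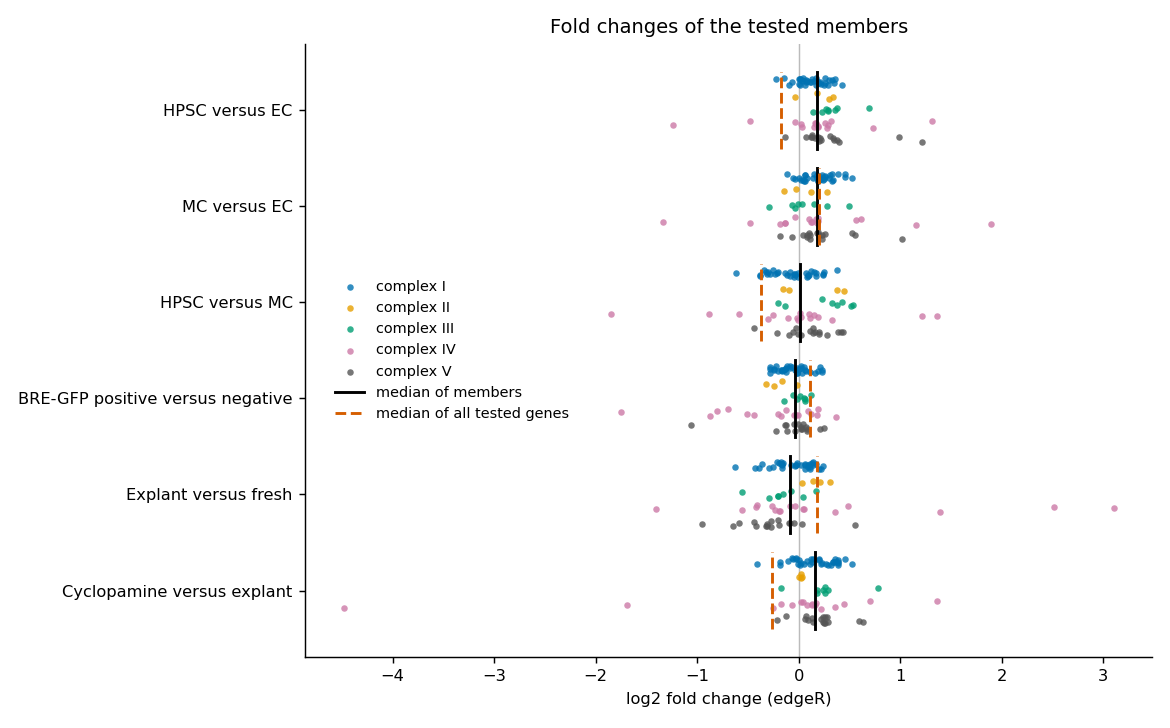
Log2 fold change of the 81 tested members in 6 comparisons, coloured by complex; solid lines mark the median of the members and dashed lines that of all 16231 tested genes. Members gather near 0 in every comparison, with medians from -0.09 (explant versus fresh) to 0.18 (HPSC versus EC), and none passed an adjusted p of 0.05 by edgeR with all 18 libraries.

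The data limited the size of the differences averaged over blocks for most members. The 95% interval of the fold change lay within 2-fold either way for 52 of 81 members in HPSC versus EC, 53 in MC versus EC and 50 in HPSC versus MC, that is for 64.2, 65.4 and 61.7% of members, against 12.01, 11.7 and 10.1% of all tested genes. It did so for 63 members (77.8%) between BRE-GFP fractions, 51 (63.0%) between explant and fresh and 49 (60.5%) between cyclopamine and explant, against 17.4, 11.4 and 14.0% of all genes. These effects of fraction and culture are averages over the 3 populations and set no such limit within 1 population. Within a population the members' median SE was 0.46 for BRE-GFP, against 0.28 for the average. For both culture comparisons it was 0.55 to 0.56, against 0.32. The median distance from the fold change to the end of its interval was 0.59 to 0.72 for members and 1.70 to 1.96 for all tested genes on the log2 scale. These values are not matched for level: the median of the mean CPM was 174 for members and 19.1 for all tested genes.

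BRE-GFP positive cells were compared with negative cells in 9 pairs, each within a population and a culture. edgeR called 0 members, against 0.0554% of all tested genes, and 0 had an unadjusted p under 0.05, against 5.3%. DESeq2 and limma-voom called 0, with 1 and 2 unadjusted. The median was -0.03 with 32 of 81 positive, against 0.11 for all tested genes. It was 0.09 without HPSC cyclopamine negative, 0.01 without both shallow libraries and 0.01 by limma-voom. By complex it was -0.06 for I, -0.20 for II, where 0 of 4 were positive, 0.03 for III, -0.13 for IV and 0.02 for V. Cox7a1 (chr7:30184144-30186078, plus strand) had 0, 1.32 and 7.47 CPM in positive and 1.43, 5.42 and 33.5 CPM in negative libraries (lowest, median and highest of 9). It was lower in the positive fraction in 7 of 9 pairs, and the ranges overlapped (log2 fold change -1.75 ± 1.01, 95% interval -3.91 to 0.41, edgeR adjusted p = 0.9999). Cox6a1, the widely expressed form of subunit 6a, averaged 253 ± 75.9 CPM in positive and 196 ± 59.5 CPM in negative libraries (0.37 ± 0.22, edgeR adjusted p = 0.9999, higher in 7 of 9 pairs). Sdhd averaged 364 ± 80.0 CPM and 475 ± 210 CPM in these fractions (-0.32 ± 0.22, edgeR adjusted p = 0.9999).

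The pairs behind this median differed in direction. The median log2 difference of the members between positive and negative was -1.26 in HPSC with cyclopamine, -0.09 in HPSC explants and -0.45 in fresh HPSC. It was 0.02, 0.47 and 0.76 in the corresponding MC pairs and -0.11, 0.79 and -0.69 in the EC pairs. HPSC pairs lay below 0 and MC pairs above it, and the extreme pair of each held 1 of the shallow libraries. In that MC pair the members' log2 CPM relative to their own means also varied with exon length. The Spearman coefficients were -0.53 in MC fresh positive and 0.50 in MC fresh negative. They were 0.12 in HPSC cyclopamine positive and -0.19 in HPSC cyclopamine negative. The part of depth or length in these pairs was not tested. In models with an effect for each population the medians of the members were -0.56 in HPSC, 0.38 in MC and 0.01 in EC. Those of all tested genes were 0.23 in HPSC, -0.18 in MC and 0.33 in EC. The test of the difference between populations called 0 members, against 0% of all tested genes, and 0 were under an unadjusted p of 0.05, against 2.27%. DESeq2 and limma-voom called 0, with 0 unadjusted. The 3 members of lowest p were accessory subunits of complex I by edgeR: Ndufv3 (unadjusted p = 0.0736; -0.99 ± 0.44 in HPSC, 0.54 ± 0.43 in MC and -0.43 ± 0.43 in EC), Ndufa13 (unadjusted p = 0.0866) and Ndufa7 (unadjusted p = 0.111), each with an edgeR adjusted p of 1.

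**Figure D4:**
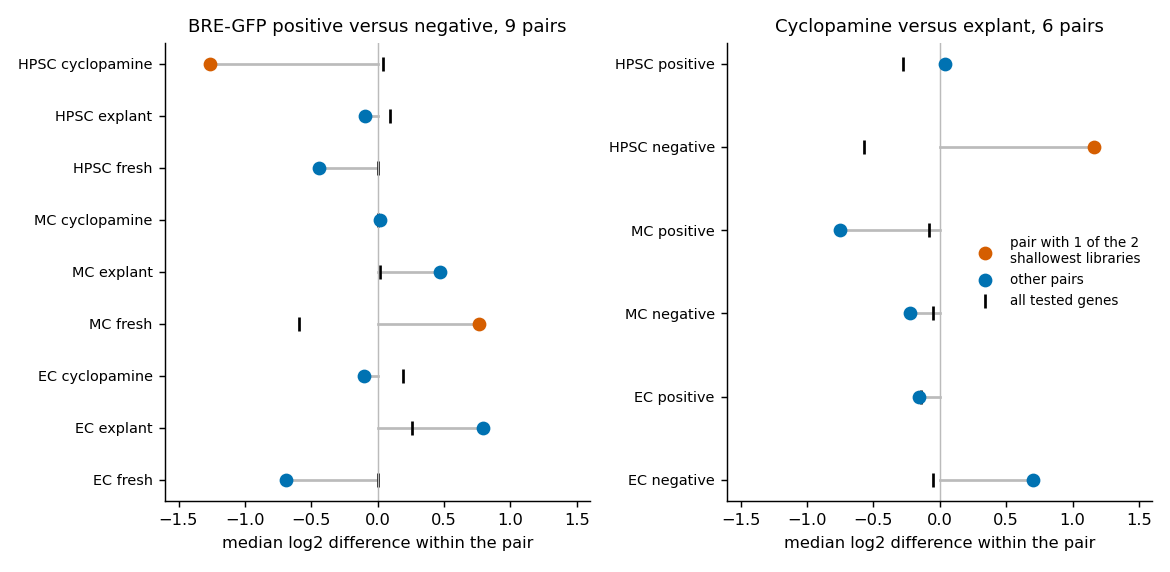
Median log2 difference of the 81 tested members within each pair of libraries, for BRE-GFP positive versus negative (9 pairs) and cyclopamine versus explant (6 pairs); orange symbols are pairs that hold 1 of the 2 shallowest libraries, and black ticks give the median of all tested genes. The HPSC pair of cyclopamine libraries lies lowest at -1.26 in the BRE-GFP comparison, and the BRE-GFP negative HPSC pair highest at 1.16 in the cyclopamine comparison; both share HPSC cyclopamine negative.

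Explants were set against fresh tissue in 6 blocks, each within a population and a BRE-GFP fraction. edgeR called 0 of 81 members, against 0.136% of all tested genes, and 2 had an unadjusted p under 0.05, against 8.58%. DESeq2 and limma-voom called 0, with 3 and 6 unadjusted. The median was -0.09 with 31 positive, against 0.18 for all tested genes. Complex V stood lowest, with a median of -0.28 and 15 of 17 members negative, while complex II had a median of 0.18 with 4 of 4 positive, and complexes I, III and IV -0.02, -0.18 and -0.09. The summed CPM of complex V was 4289 ± 640 in explant and 5313 ± 708 in fresh libraries (SD, n = 6 each). This sum was lower in explants in 6 of 6 blocks. Its mean log2 ratio was -0.31 ± 0.21, with a range from -0.64 to -0.05. Members of high level weigh most in it, such as Atp5a1 and Atp5b with means of 1743 and 746 CPM over all libraries. The blocks' median log2 differences of complex V members spread more, with a mean of -0.25 and an SD of 0.43. Over all settings tried the complex V median lay between -0.47 (the share of reads at no feature as a covariate) and -0.15 (without EC fresh negative), and it was -0.25 without both shallow libraries.

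Within complex V, Atp5b, the catalytic beta subunit (chr10:128083273-128090391, plus strand), had the lowest p of all members. It stood at 798 and 935 CPM in HPSC explants (BRE-GFP positive and negative), 451 and 464 CPM in MC explants and 429 and 715 CPM in EC explants, against 922 and 1150 CPM in fresh HPSC, 1174 and 784 CPM in fresh MC and 919 and 845 CPM in fresh EC. Each explant library lay below its fresh partner, and only the HPSC explants reached into the fresh range (-0.65 ± 0.23, 95% interval -1.14 to -0.15, unadjusted p = 0.0133 and adjusted p = 0.370 by edgeR). Other subunits of the head and ring gave -0.59 ± 0.34 (Atp5d, delta), -0.44 ± 0.31 (Atp5g3, the c-ring gene with the most counts) and -0.28 ± 0.19 (Atp5a1). Atp5e gave -0.27 ± 0.29 and Atp5c1 (gamma) 0.03 ± 0.25, so that no complex V subunit but Atp5b had an interval on 1 side of 0. Cox5a had 7.07, 17.9 and 111 CPM in explant and 26.2, 52.8 and 130 CPM in fresh libraries. It was lower in explants in 6 of 6 blocks with overlapping ranges (-1.40 ± 0.57, 95% interval -2.60 to -0.21, unadjusted p = 0.0244 and adjusted p = 0.444 by edgeR). Ndufa10, an accessory subunit of complex I (chr1:92439010-92473860, minus strand), had 46.2, 99.98 and 147 CPM in explant and 139, 157 and 178 CPM in fresh libraries. It too was lower in 6 of 6 blocks, with 1 explant library inside the fresh range (-0.63 ± 0.33, edgeR adjusted p = 0.642). Cox4i2 went the other way, at 12.95, 26.5 and 60.5 CPM in explant and 0.566, 11.4 and 25.6 CPM in fresh libraries (1.39 ± 0.73, edgeR adjusted p = 0.650, higher in 5 of 6 blocks), and its share of the Cox4i pair was 3.27 ± 1.298% in explant and 1.398 ± 0.98% in fresh libraries.

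**Figure D5:**
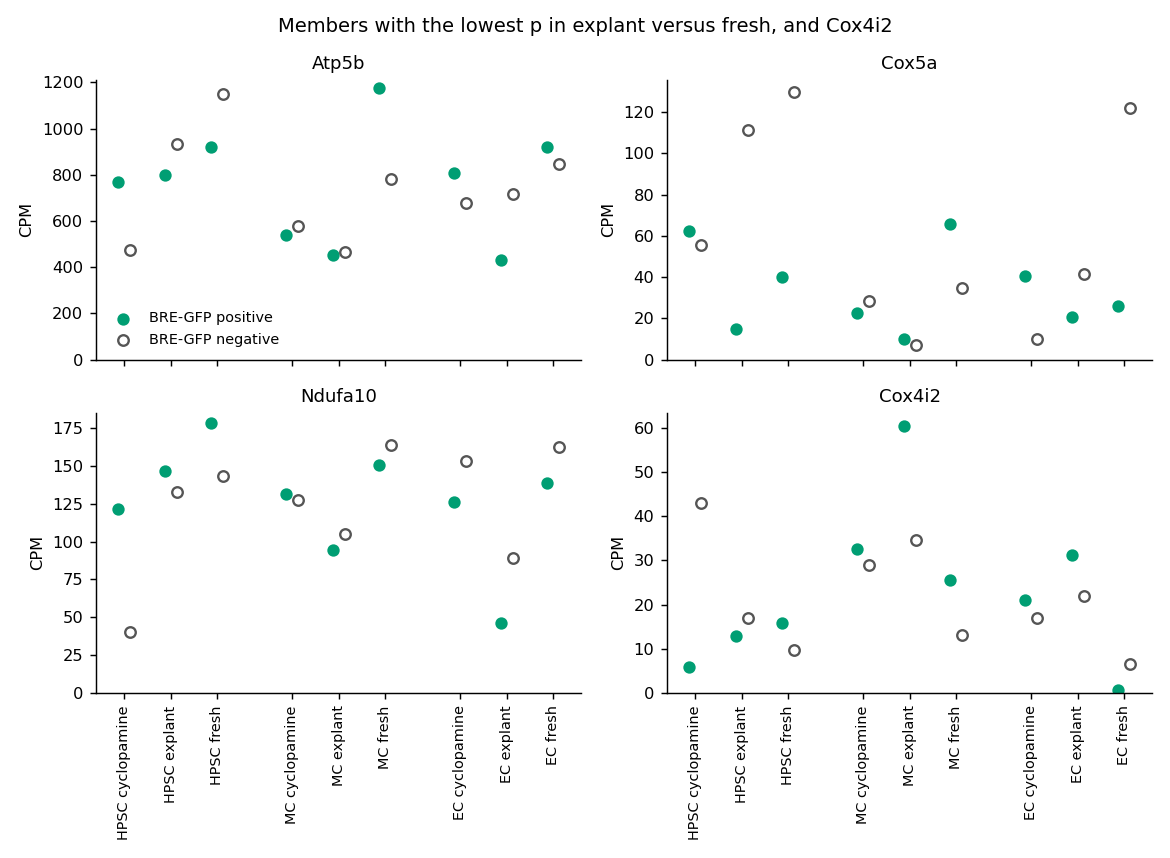
CPM of Atp5b, Cox5a, Ndufa10 and Cox4i2 in each library, by population and culture; filled green symbols are BRE-GFP positive and open symbols negative libraries. Atp5b, Cox5a and Ndufa10 lie lower in every explant library than in its fresh partner (6 of 6 blocks), and Cox4i2 lies higher in 5 of 6.

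In fits with an effect for each population, the median of the members between explant and fresh was -0.10 in HPSC, -0.10 in MC and -0.11 in EC. That of all tested genes was 0.28 in HPSC, 0.39 in MC and -0.01 in EC. The test of whether the explant effect differed between populations called 0 members, against 0% of all tested genes. Under an unadjusted p of 0.05 were 0 members, against 0.998% of all tested genes. DESeq2 and limma-voom called 0, with 0 unadjusted. The lowest p values by edgeR were those of Cox4i2 (unadjusted p = 0.286), Cox7b2 (unadjusted p = 0.354) and Atp5b (unadjusted p = 0.373; -0.26 ± 0.40 in HPSC, -1.08 ± 0.41 in MC and -0.64 ± 0.40 in EC), each with an edgeR adjusted p of 1.

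Explants with cyclopamine were set against explants without it, the same 6 explant libraries that entered the comparison with fresh tissue. edgeR called 0 members, against 0% of all tested genes, and 1 had an unadjusted p under 0.05, against 8.13%. DESeq2 and limma-voom called 0, with 1 and 3 unadjusted. The median was 0.16 with 63 of 81 positive, against -0.27 for all tested genes, and it was 0.14, 0.02, 0.25, 0.13 and 0.23 for complexes I to V. Without HPSC cyclopamine negative it was -0.02, without both shallow libraries -0.00, by limma-voom -0.05 and with the share of reads at no feature as a covariate 0.68. The member of lowest p was Cox7b2, which had 0 counts in most cyclopamine libraries and averaged 0.356 ± 0.845 CPM with cyclopamine and 1.07 ± 0.718 CPM without (edgeR unadjusted p = 0.0381 and adjusted p = 0.564). Its counts in the explant libraries without cyclopamine ran from 0 to 27, and in the cyclopamine libraries from 0 to 16. Ndufv1, the subunit that binds NADH (chr19:4007384-4012806, minus strand), had 216, 267 and 345 CPM with cyclopamine and 152, 193 and 250 CPM without. Cyclopamine libraries were higher in 4 of 6 blocks with overlap (0.52 ± 0.29, 95% interval -0.10 to 1.14, edgeR adjusted p = 0.746), and the sign turned to -0.51 with the share of reads at no feature as a covariate. That share was 19.5 to 33.0% in cyclopamine and 35.0 to 49.4% in explant libraries. These ranges do not overlap, so the covariate and cyclopamine cannot be told apart here. Ndufa9, a subunit near the quinone site, averaged 322 ± 174 CPM with cyclopamine and 400 ± 74.4 CPM without (-0.41 ± 0.27, edgeR adjusted p = 0.852), lower in 5 of 6 blocks.

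The populations again differed in direction without a call. The median of the members between cyclopamine and explant was 0.59 in HPSC, -0.48 in MC and 0.25 in EC in the fits. That of all tested genes was -0.68 in HPSC, -0.07 in MC and -0.36 in EC. The members' medians in the pairs were 0.04 and 1.16 in HPSC (BRE-GFP positive and negative), -0.75 and -0.23 in MC and -0.16 and 0.70 in EC. The test of the difference called 0 members, against 0% of all tested genes, and 1 was under an unadjusted p of 0.05, against 1.56%. DESeq2 called 0 with 2 unadjusted and limma-voom 0 with 0. That member was Ndufa10 (unadjusted p = 0.0487, edgeR adjusted p = 1), with -0.95 ± 0.54 in HPSC, 0.38 ± 0.52 in MC and 1.10 ± 0.53 in EC. Next by edgeR, with adjusted p of 1, came Atp5sl (unadjusted p = 0.0889) and Sdhb, the iron-sulfur subunit of complex II (unadjusted p = 0.132; 0.77 ± 0.47 in HPSC, -0.63 ± 0.45 in MC and -0.11 ± 0.45 in EC).

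Complex II has only nuclear-encoded subunits and also serves the tricarboxylic acid cycle, and none of its 4 genes passed a test. Beside the values of Sdha and Sdhd above, Sdhb had 328, 360 and 1042 CPM in HPSC, 364, 477 and 656 CPM in MC and 322, 361 and 559 CPM in EC. Sdhc had 176, 228 and 430 CPM in HPSC, 206, 274 and 342 CPM in MC and 207, 250 and 323 CPM in EC. For both, the highest HPSC library was HPSC cyclopamine negative and the populations overlapped throughout. The log2 fold changes of Sdhc lay between -0.16 and 0.12 in all 6 comparisons. Cox4i1 was as even, with log2 fold changes of 0.19 ± 0.26 in HPSC versus EC and 0.17 ± 0.26 in MC versus EC, and between -0.07 and 0.05 in the other 4.

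Genes around the pathway gave few calls, and their shares are set against 9.95% of all tested genes called between HPSC and MC. Of 29 tested assembly factors of the complexes, 20 regulators of mitochondrial biogenesis and 17 enzymes of the tricarboxylic acid cycle, edgeR called 0 in any of the 6 comparisons. Among 16 electron carriers and exchange proteins, a pair of adenine nucleotide carriers, which trade mitochondrial ATP for cytosolic ADP, passed the threshold between HPSC and MC. Slc25a5 was higher at 576 ± 265 CPM in HPSC and 275 ± 80.1 CPM in MC (1.04 ± 0.28, edgeR adjusted p = 0.0263), and Slc25a4, the form of heart and muscle, was lower at 941 ± 201 CPM in HPSC and 1514 ± 202 CPM in MC (-0.69 ± 0.20, edgeR adjusted p = 0.0355). Among 18 genes of glycolysis and hypoxia, Gpi1, which isomerizes glucose 6-phosphate, was higher in HPSC at 550 ± 157 CPM against 261 ± 88.0 CPM in MC (1.10 ± 0.23, edgeR adjusted p = 0.00543). Pfkm, the muscle form of phosphofructokinase, was lower at 45.1 ± 24.6 CPM in HPSC and 116 ± 42.6 CPM in MC (-1.41 ± 0.40, edgeR adjusted p = 0.0334). The muscle markers given above were lower in HPSC than in MC as well, and their part in Slc25a4 and Pfkm was not tested. The calls, 2 of 16 and 2 of 18, lie near the share of all genes and are not a result about the lists.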

How the data were processed

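Whole-number read counts per gene symbol were deposited by the authors for 18 libraries of sorted mouse AGM cells, made with a SMARTer protocol per the labels' protocols, without normalization. TopHat, Cufflinks, HTSeq and mm10 stand in the submitters' processing notes. Their versions, the annotation and the strand setting were not given in the sources used here. Totals leave out the lines for unassigned reads: reads at no feature were 19.5 to 49.4% and ambiguous reads 0.479 to 0.935%, and reads with more than 1 place were not assigned. Genes with highly shared sequence can therefore be undercounted, and antisense overlaps cannot be separated.

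Members and gene lists were chosen with earlier results of these data known. Counts were tested with edgeR 4.0.16 (R 4.3.3; quasi-likelihood F test, TMM, blocks of matched libraries, all 18 libraries in each fit) over the 16231 genes that reached 0.796 CPM (10 counts in a library of median depth) in 3 or more libraries, with Benjamini-Hochberg adjustment over all of them and a threshold of 0.05. Residual degrees of freedom were 10 for populations and cultures, 8 for BRE-GFP and 6 within populations, and edgeR's common coefficient of biological variation 0.88 to 0.92. Named were members passing the threshold (else the 3 of lowest p), the highest and lowest of each complex, isoform pairs, complex II and members under the filter, and from other lists only passing genes. Log2 CPM used a prior count of 2. Lengths, coordinates and the 50-base windows shared with transcripts of other genes are from GENCODE M21 on GRCm38, in which all 84 symbols were matched. The code was tested on simulated counts with less variation than these libraries and no block effects, which does not measure the power of the tests here. Alternatives were DESeq2 1.42.0, limma-voom 3.58.1, other scaling, no filter, additive terms, the no-feature share as covariate, leaving out each library and, added after seeing the data, both libraries of least depth and another exon length. Figures were drawn with matplotlib 3.10.9. The values of some members are not reported here.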

Additional observations from a re-analysis of the deposited data

Results flagged for a closer look

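In 66 groups of 6 libraries, 14 values stood far from the other 5, and 8 of the 14 belong to HPSC cyclopamine negative. Chance flags about 1 in 20 independent groups, but these groups share libraries and genes (the sum of all members holds those of the complexes, and complex II holds Sdha and Sdhd), so the number is not set against that rate. Among the HPSC libraries it stood apart with summed CPM of 31448 for all members (others 14704 to 19190), 11747 for complex I (4690 to 6434), 3696 for complex II (1701 to 2025), 3586 for complex III (1540 to 2041) and 4109 for complex IV (1816 to 2609). It also stood apart with 43.0 CPM of Cox4i2 (5.74 to 16.8), 1238 CPM of Sdha (783 to 951) and 985 CPM of Sdhd (360 to 527). It is the library of least depth, and the part of depth in these values was not tested.

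The other libraries that stood apart from the rest of their population did so for single genes. Among MC libraries, MC fresh positive had 397 CPM of Cox6a1 (others 124 to 220) and 319 CPM of Sdha (735 to 878), and MC fresh negative had 2287 CPM of Atp5a1 (1539 to 1787). Among EC libraries, EC cyclopamine negative had 33.5 CPM of Cox7a1 (1.01 to 5.58) and 2.08 CPM of Cox7b2 (0 to 0.657), and EC fresh negative had 122 CPM of Cox5a (10.1 to 41.4).

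In some comparisons every pair of a population had a median of one sign and every pair of another the opposite sign. These differences were not tested as medians over members. For all members some pairs hardly moved: the MC pair of cyclopamine libraries for BRE-GFP and the BRE-GFP positive HPSC pair for cyclopamine. The most extreme HPSC pair of both comparisons held HPSC cyclopamine negative, the library of least depth, and weighs heavily in the HPSC means. Between BRE-GFP positive and negative cells, the mean of the pairs' median log2 differences was -0.60 in HPSC and 0.42 in MC for all members (difference -1.02), -0.61 and 0.42 for complex I (difference -1.02), and -0.61 and 0.37 for complex V (difference -0.97). Between cyclopamine and explant, HPSC and MC gave 0.60 and -0.49 for all members (difference 1.09), 0.57 and -0.51 for complex I (1.08), 0.84 and -0.51 for complex III (1.35) and 0.72 and -0.43 for complex V (1.15). For complex V, MC and EC gave -0.43 and 0.35 (difference -0.78).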

How the results depend on the processing

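With all 18 libraries, edgeR called no member in any of the 9 comparisons, and leaving out each library in turn gave 0 calls in every one of them. For HPSC versus MC, limma-voom called 2 members (Cox5a at 1.65, Atp5b at 0.50) and leaving out both libraries of least depth 1 (Atp5b, 0.70, edgeR adjusted p = 0.0318). Leaving out each library in turn moved the median log2 fold change of the members from -0.05 to 0.29 in HPSC versus EC, -0.07 to 0.30 in MC versus EC, -0.17 to 0.24 in HPSC versus MC, -0.15 to 0.09 for BRE-GFP, -0.22 to -0.00 for explant versus fresh and -0.02 to 0.29 for cyclopamine versus explant; for complex V in explant versus fresh it ran from -0.37 to -0.15. With the no-feature share as a covariate, the medians were -0.02 in HPSC versus EC, -0.21 in HPSC versus MC and 0.68 in cyclopamine versus explant. Ndufv1 turned to -0.51 in the last of these, where the covariate and cyclopamine cannot be told apart. With limma-voom the cyclopamine median was -0.05. Other exon lengths gave 4.604% for the Cox4i2 share and 1.77% for Atp5g1, and no length correction 3.89% for Atp5g1. The causes were not tested. No paired analysis was possible because the labels give no replicate numbers; libraries were matched into blocks and pairs by population, culture and fraction only. With 1 library per combination and a biological coefficient of variation of 0.88 to 0.92, small changes could go undetected, in low members and in those of typical level. The median distance from a member's fold change to the end of its 95% interval was 0.59 to 0.72 on the log2 scale.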

Other observations

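Genes of glycolysis and hypoxia response were positive in explant versus fresh for 17 of 18 tested genes, with a median log2 fold change of 0.45, against 0.18 over all tested genes, and edgeR called 0 of them. In cyclopamine versus explant, which uses the same explant libraries, 3 of 18 were positive, with a median of -0.26 against -0.27 over all tested genes. Enzymes of the tricarboxylic acid cycle were positive for 15 of 17 in HPSC versus EC, with a median of 0.32 against -0.17 over all tested genes, and 0 were called. Cytosolic ribosomal proteins, another evenly expressed set of short genes, had medians of -0.66 in HPSC and 0.33 in MC between BRE-GFP positive and negative cells, and of 0.46 in HPSC and -0.57 in MC between cyclopamine and explant. The members' medians in the same populations were -0.56 and 0.38, and 0.59 and -0.48.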
